A study of Mus musculus with 10 samples.

Results

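The genes described here encode serine protease precursors of the exocrine pancreas and the inhibitor that acts on trypsin. They are the trypsinogens Prss1, Prss2, Prss3, Try4 and Try5, the chymotrypsinogens Ctrb1, Ctrc and Ctrl, the tissue kallikrein Klk1 and the trypsin inhibitor Spink1. The 10 genes were picked by symbol, through their Ensembl identifiers, from the 52178 genes of the count table, and all 10 passed the filter on low counts. Their transcripts were measured by RNA-seq in pancreatic islets, the clusters of hormone-secreting cells of the pancreas, from male C57Bl/6 retired breeder mice in 10 libraries. The exercise group (exercise 6 to 10) was given 3 days to get used to a treadmill and then ran 1 h on each of 5 days per week. Training lasted 2 weeks, with the belt at 17 cm/s and tilted by 5 degrees. The sedentary group (sedentary 1 to 5) did not train. In both groups islets were freed with collagenase, picked by hand and held in medium with 11 mM glucose. The labels name no transgene. Whether the libraries come from separate animals is not stated in them, so a p-value reflects the scatter among these libraries, part of which may be technical.

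Acinar cells of the exocrine pancreas store these proteases as inactive precursors in zymogen granules and release them into the duct. In the gut, enteropeptidase cuts trypsinogen behind a run of aspartates that ends in lysine, and the trypsin formed activates chymotrypsinogens and the other precursors. Trypsin that forms too early inside the pancreas is blocked by the inhibitor SPINK1 and, in humans, is degraded with the help of chymotrypsin C. Tissue kallikrein releases kinins, short vasoactive peptides, from kininogens. Islets are endocrine tissue and lie embedded among acinar cells.

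The 5 trypsinogens are similar in sequence, and some pairs are near-identical, which bears on how reads could be divided among them. The activation sites are given as coding bases 40 to 99 of each gene, from the GENCODE M21 transcripts, with the aspartate and lysine codons of the enteropeptidase site in capitals.
Prss1: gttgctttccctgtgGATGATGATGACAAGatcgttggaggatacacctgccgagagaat
Prss2: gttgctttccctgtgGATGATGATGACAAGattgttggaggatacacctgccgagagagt
Prss3: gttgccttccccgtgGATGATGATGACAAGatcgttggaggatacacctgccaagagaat
Try4: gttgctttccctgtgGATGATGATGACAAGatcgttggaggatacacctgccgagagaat
Try5: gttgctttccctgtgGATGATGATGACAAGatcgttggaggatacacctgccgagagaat
Over these 60 bases Prss1, Try4 and Try5 differed at 0 bases from each other. Prss2 differed from Prss1 at 2 bases and Prss3 from Prss1 at 3. Over whole coding sequences the identity was 97.4% between Try4 and Try5 and 89.6% between Prss1 and Prss2. Of the 31-base windows in its transcript, Prss2 shared 21.8% with another trypsinogen-like gene of the cluster, against 65.1% for Try5, 68.9% for Prss1, 75.4% for Prss3 and 82.2% for Try4. The values of single trypsinogens are therefore uncertain to the extent that kallisto divided shared reads among copies, and those of Prss2 rest on the most sequence of its own.

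Library totals lay between 15081922 and 23222704 estimated counts, and scaling factors (TMM, trimmed mean of M-values) between 0.669 and 1.197. The islet label was checked against 6 beta cell markers (Ins1, Ins2, Iapp, Mafa, Slc2a2, G6pc2), of which 0 passed in edgeR, also at an unadjusted p under 0.05, and 0 in DESeq2 or limma-voom. Their summed level was 133807 to 189728 CPM in exercise libraries, where CPM is the count per 1000000 counts of the TMM-scaled library. In sedentary libraries it was 8059 CPM in sedentary 1, 37078 CPM in sedentary 2 and 135023 to 193342 CPM in the other 3. Of these markers, G6pc2 had a log2 fold change of 1.43 (edgeR adjusted p = 0.150). Its exercise libraries all lay above its sedentary libraries, which was so for 6.24% of all genes tested. Without sedentary 1 and 2 only G6pc2 of the 6 passed, at 0.85 (edgeR adjusted p = 0.0121), where 4.1% of all genes tested rose. Markers of small intestinal epithelium ran the other way: against 11.4% of all genes tested, 12 of 12 were lower in exercise. They summed to 272 to 735 CPM in exercise libraries, against 13070 and 18740 CPM in sedentary 1 and 2 and 2912 to 3736 CPM in sedentary 3 to 5. In the order of smallest p, the intestinal transcripts were led by Mttp, Fabp2, Lct and Cdx2, with log2 fold changes of -4.24, -5.05, -4.55 and -5.47 (edgeR adjusted p = 0.00900 each). Sedentary 1 and 2 thus stand apart. Without them 12 of 12 intestinal markers were still lower, where 8.68% of all genes tested fell. The log2 fold changes of Mttp, Fabp2, Lct and Cdx2 were then -2.70, -3.57, -3.26 and -3.84. In limma-voom 10 of 12 passed, and Cdx2 was lost (adjusted p = 0.0623). Of 6 pancreatic duct markers 2 were lower in exercise, where 11.4% of all genes tested fell. The 6 duct markers summed to 156 to 299 CPM in exercise and 207 to 1101 CPM in sedentary libraries. Of 4 alpha cell, 6 stromal and 5 immune markers 0 passed in edgeR. Over beta, alpha, stromal and immune markers together, 1 was higher and 1 lower at an unadjusted p under 0.05, while DESeq2 called 1 lower and limma-voom called 0. The part of these other cells in the results below was not tested.

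Most of the digestive protease transcripts were higher in islets of exercised mice. Of the 10 genes, 6 rose and 0 fell in exercise (edgeR quasi-likelihood test, Benjamini-Hochberg adjustment over 15298 genes, threshold 0.05), where 2.44% of all genes tested rose and 11.4% fell. They were Klk1, Ctrl, Try4, Ctrc, Ctrb1 and Prss2, and 0 genes were lower at an unadjusted p under 0.05 or in DESeq2 and limma-voom. The median log2 fold change of the 10 genes was 1.19, against -0.00072 over all genes tested, and all 10 values were positive, from 0.63 for Prss3 to 1.69 for Klk1. For 5 of the 10 genes every exercise library lay above every sedentary library, which was so for 6.24% of all genes tested. Together the 10 genes took 4.90 to 8.09% of the counts of exercise libraries (6.42 ± 1.54%, mean ± SD, n = 5) and 2.14 to 4.18% of those of sedentary libraries (3.32 ± 0.793%, n = 5). In a bulk sample, more cells of a type and more RNA per cell cannot be told apart. The part of acinar cells that came along with the islets was not tested. Without sedentary 1 and 2 again 6 of 10 genes rose and 0 fell (4.1% of all genes rose and 8.68% fell), with a median of 1.26. They were again Klk1, Ctrl, Try4, Ctrc, Ctrb1 and Prss2, while the log2 fold change was 0.68 for Prss1 and 0.34 for Prss3. The count rested on single libraries: only Klk1 passed without exercise 6, 7 or 9 or sedentary 2 or 5, Klk1 and Ctrl passed without exercise 8 or sedentary 3, and 6 genes passed without exercise 10 or sedentary 1 or 4. The lost calls had edgeR adjusted p-values of 0.0527 to 0.0887.

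**Figure D1:**
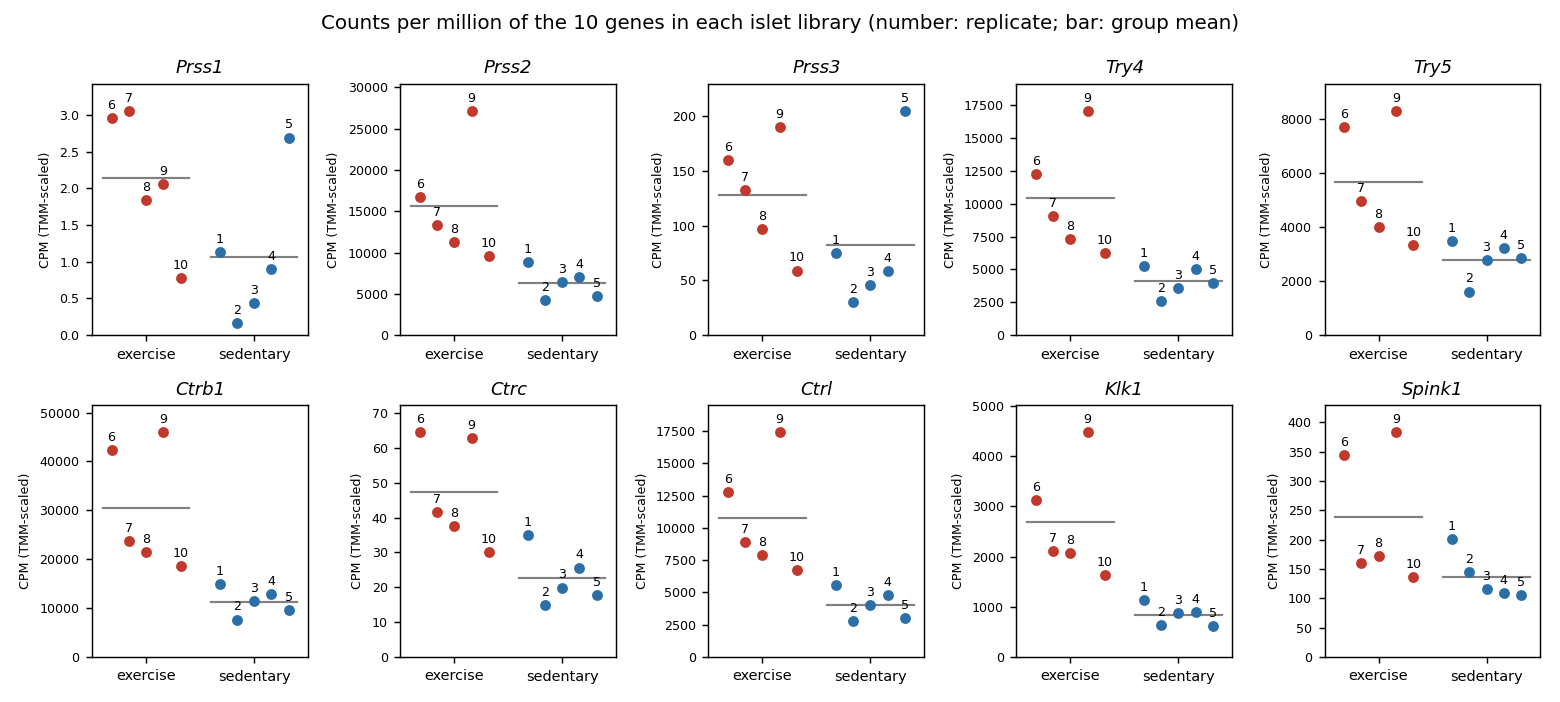
Each panel plots 1 gene, with CPM on the vertical axis and the exercise group left of the sedentary group; points are libraries with their replicate number and bars are group means. The exercise libraries lie above all sedentary libraries for Prss2, Try4, Ctrb1, Ctrl and Klk1, and sedentary 5 stands high for Prss1 and Prss3.

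Among the trypsinogens, precursors of the protease that starts the digestive cascade, Prss2 and Try4 rose. Prss2 had 16699, 13304, 11259, 27194 and 9607 CPM in exercise 6 to 10, against 8872, 4206, 6473, 7018 and 4758 CPM in sedentary 1 to 5. The lowest exercise library lay above the highest sedentary library, and exercise 9 was the highest of all. The log2 fold change was 1.32 (standard error 0.38, edgeR adjusted p = 0.0427), from means of 15612 ± 6994 CPM in exercise and 6265 ± 1865 CPM in sedentary libraries (SD, n = 5 each). Try4 had 12262, 9066, 7328, 17094 and 6281 CPM in exercise libraries and 5270.0, 2592, 3559, 5004 and 3986 CPM in sedentary libraries. The groups did not overlap (log2 fold change 1.35, standard error 0.35, edgeR adjusted p = 0.0320). Standard errors here are the log2 fold change divided by the square root of its F statistic.

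Try5 was higher on average in exercise libraries but did not pass. It had 7709.8, 4949, 3986, 8307 and 3344 CPM in exercise libraries and 3479.9, 1613, 2791, 3213 and 2845 CPM in sedentary libraries. Exercise 10 lay below sedentary 1, so the groups overlapped (log2 fold change 1.02, standard error 0.33, edgeR adjusted p = 0.0658). DESeq2 called Try5 higher at an adjusted p of 0.00811, the lowest of its alternatives, where the highest was 0.137. Prss1, the scarcest of the 10 genes per transcript length, had 2.96, 3.06, 1.84, 2.06 and 0.781 CPM in exercise libraries and 1.14, 0.164, 0.444, 0.907 and 2.69 CPM in sedentary libraries. Its groups overlapped through exercise 10 and sedentary 5 (log2 fold change 0.99, standard error 0.62, edgeR adjusted p = 0.276). Prss3 had 160.4, 133, 97.2, 191 and 59.1 CPM in exercise libraries and 75.0, 29.9, 45.5, 58.3 and 205 CPM in sedentary libraries. The highest of its 10 values was in sedentary 5 (log2 fold change 0.63, standard error 0.51, edgeR adjusted p = 0.377).

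All 3 chymotrypsinogens rose, though limma-voom lost Ctrc (adjusted p = 0.0584) and edgeR without a filter on low counts lost Ctrb1 (adjusted p = 0.0624). Ctrb1, chymotrypsinogen B, was the most abundant of the 10 genes per transcript length and had 42292, 23739, 21452, 45949.8 and 18498 CPM in exercise 6 to 10, against 14832, 7642, 11336, 12782 and 9557 CPM in sedentary 1 to 5. The groups did not overlap, with exercise 6 and 9 far above the rest (log2 fold change 1.44, standard error 0.39, edgeR adjusted p = 0.0370). Ctrl, the chymotrypsin-like protease precursor, had 12742, 8911, 7884, 17403 and 6731 CPM in exercise libraries and 5551, 2785, 4029, 4783 and 3019 CPM in sedentary libraries. Here too every exercise library was higher (log2 fold change 1.41, standard error 0.35, edgeR adjusted p = 0.0267). Ctrc, the precursor of chymotrypsin C, had 64.5, 41.6, 37.5, 62.9 and 30.2 CPM in exercise libraries and 35.0, 15.02, 19.9, 25.7 and 17.8 CPM in sedentary libraries. Exercise 10 lay below sedentary 1 (log2 fold change 1.06, standard error 0.28, edgeR adjusted p = 0.0336).

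Klk1 had the largest fold change of the 10 genes and the only call that held with any 1 library left out (edgeR adjusted p up to 0.0316). It had 3124, 2108, 2066, 4475 and 1627 CPM in exercise 6 to 10, against 1135, 639, 870.3, 897 and 614 CPM in sedentary 1 to 5. Even exercise 10, the lowest of its group, stood above sedentary 1, the highest of the other. Klk1 averaged 2680.1 ± 1143 CPM in exercise and 831 ± 213 CPM in sedentary libraries (SD, n = 5 each), a log2 fold change of 1.69 (standard error 0.32, edgeR adjusted p = 0.00971). Without sedentary 1 and 2 it was 1.78 (edgeR adjusted p = 0.00783).

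Of the 19 listed genes around the kinins (kallikrein relatives, kininogens, kinin receptors and kininases) 9 were abundant enough to test. Of these 5 rose and 2 fell, where 2.44% of all genes tested rose and 11.4% fell. All 5 that rose were Klk1b genes, the mouse relatives of Klk1. Klk1b5 had 52.5, 36.9, 38.7, 69.7 and 29.9 CPM in exercise libraries and 22.3, 10.9, 17.0, 18.1 and 12.5 CPM in sedentary libraries (log2 fold change 1.49, edgeR adjusted p = 0.00900). Klk1b24 and Klk1b4 were scarce, at means of 4.30 ± 2.50 and 7.16 ± 2.54 CPM in exercise libraries and 0.846 ± 0.262 and 1.85 ± 0.696 CPM in sedentary libraries. Their log2 fold changes were 2.33 and 1.95 (edgeR adjusted p = 0.00900 each). Coding identity with Klk1 was 86.7% for Klk1b5, 84.9% for Klk1b24 and 88.5% for Klk1b4, and these shared 22.0%, 13.4% and 18.4% of their 31-base windows with it, so part of their reads could be those of Klk1. Klk1b11 and Klk1b3 also rose, by 2.05 and 1.36 on the log2 scale (adjusted p = 0.00944 and 0.0384, edgeR). Without sedentary 1 and 2 the rises numbered 4, since Klk1b3 no longer passed (1.32, edgeR adjusted p = 0.0631), while Klk1b5, Klk1b24, Klk1b4 and Klk1b11 had log2 fold changes of 1.54, 2.40, 1.89 and 1.94. The genes that fell were Ace and Mme, peptidases that degrade kinins and that the intestinal brush border also carries. Mme averaged 9.55 ± 5.54 CPM in exercise and 232 ± 204 CPM in sedentary libraries (log2 fold change -4.60, edgeR adjusted p = 0.00900), along with the intestinal markers given above, whose part in it was not tested. Ace averaged 35.3 ± 7.87 CPM in exercise and 205 ± 154 CPM in sedentary libraries (log2 fold change -2.54, edgeR adjusted p = 0.00927). Mme and Ace still passed without sedentary 1 and 2, at -3.09 and -1.48.

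Spink1, the inhibitor, was higher on average in exercise libraries but did not pass. It had 344, 159.6, 173, 383 and 135 CPM in exercise 6 to 10, against 201, 145, 116, 109.6 and 106 CPM in sedentary 1 to 5. Exercise 6 and 9 stood above all others, while exercise 7, 8 and 10 lay below sedentary 1 (log2 fold change 0.82, standard error 0.33, edgeR adjusted p = 0.116). Sedentary 1 and 2, its highest sedentary libraries, were also those highest in intestinal markers, and the part of that in the result was not tested. Without them the log2 fold change of Spink1 was 1.13 (edgeR adjusted p = 0.0616, with 0.0616 to 0.272 over its alternatives).

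**Figure D2:**
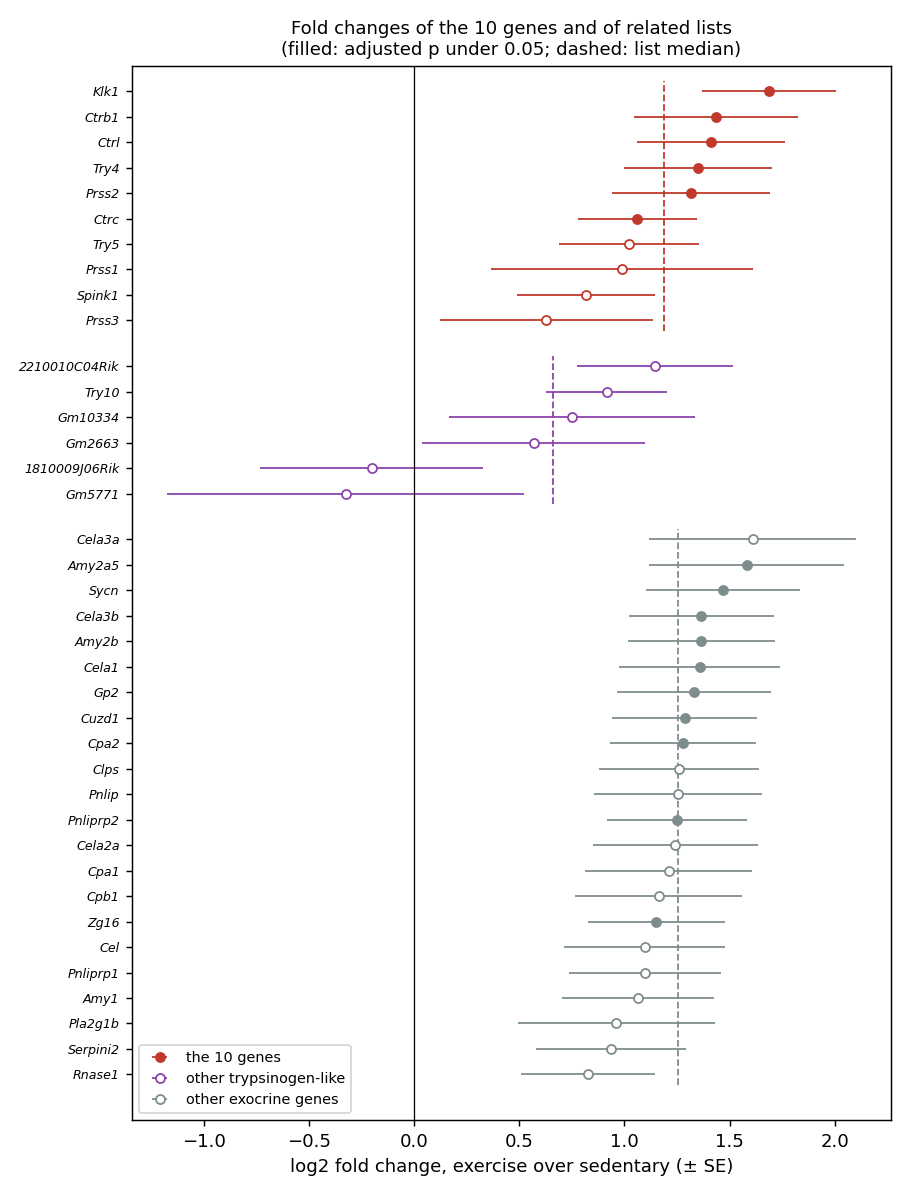
The horizontal axis is the log2 fold change (exercise over sedentary), with points for genes, bars for standard errors, filled points for adjusted p under 0.05 and dashed lines for list medians. The 10 genes (top) have a median of 1.19, the 6 other trypsinogen-like genes (middle) 0.66 with none filled, and the 22 other exocrine genes (bottom) 1.25 with 10 filled.

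Ratios within a library were used to compare the genes with each other, because they depend neither on scaling nor, for the trypsinogen sum, on how reads were divided among its 5 copies. Klk1 counts were 8.48, 7.68, 9.11, 8.48 and 8.44% of the trypsinogen counts in exercise 6 to 10, against 6.41, 7.57, 6.76, 5.87 and 5.21% in sedentary 1 to 5. All exercise values were above all sedentary values. The difference was 0.42 on the log2 scale (p = 0.00794 in a two-sided exact permutation test, the smallest p that 5 against 5 libraries allow, and 0.0238 after adjustment over 3 ratios). Klk1 thus rose more than the trypsinogens within the same libraries. Without sedentary 1 and 2 the difference was 0.51 and the values still did not overlap. Its raw p of 0.0357 in the exact permutation test was the smallest that 5 against 3 libraries allow. Adjusted over 3 ratios it was 0.107, so it could not pass unless the other ratios reached that minimum too. Adjusted p-values of the Klk1 ratio over its alternatives spanned 0.0119 to 0.107 (exact permutation tests).

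Chymotrypsinogen counts were 149.6, 119, 129.6, 120.1 and 131% of trypsinogen counts in exercise libraries and 115, 124, 119.6, 115 and 107% in sedentary libraries. The values overlapped, and the difference of 0.16 on the log2 scale did not pass (p = 0.0397 in a two-sided exact permutation test, 0.0595 after adjustment). It passed when the 6 other trypsinogen-like genes were added to the sum (0.20, exact permutation adjusted p = 0.0119) and without exercise 7 or sedentary 2 (adjusted p = 0.0476 each), over a range of 0.0119 to 0.333. It was 0.19 without sedentary 1 and 2 (exact permutation adjusted p = 0.107). Spink1 counts were 0.935, 0.581, 0.762, 0.725 and 0.702% of trypsinogen counts in exercise libraries and 1.14, 1.71, 0.904, 0.716 and 0.901% in sedentary libraries. Sedentary 1 and 2 were the highest and the other sedentary libraries lay within the exercise range. The difference of -0.49 did not pass (two-sided exact permutation test, adjusted p = 0.0952), and without sedentary 1 and 2 it was -0.19 (exact permutation adjusted p = 0.429, with 0.0714 to 0.429 over its alternatives).

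**Figure D3:**
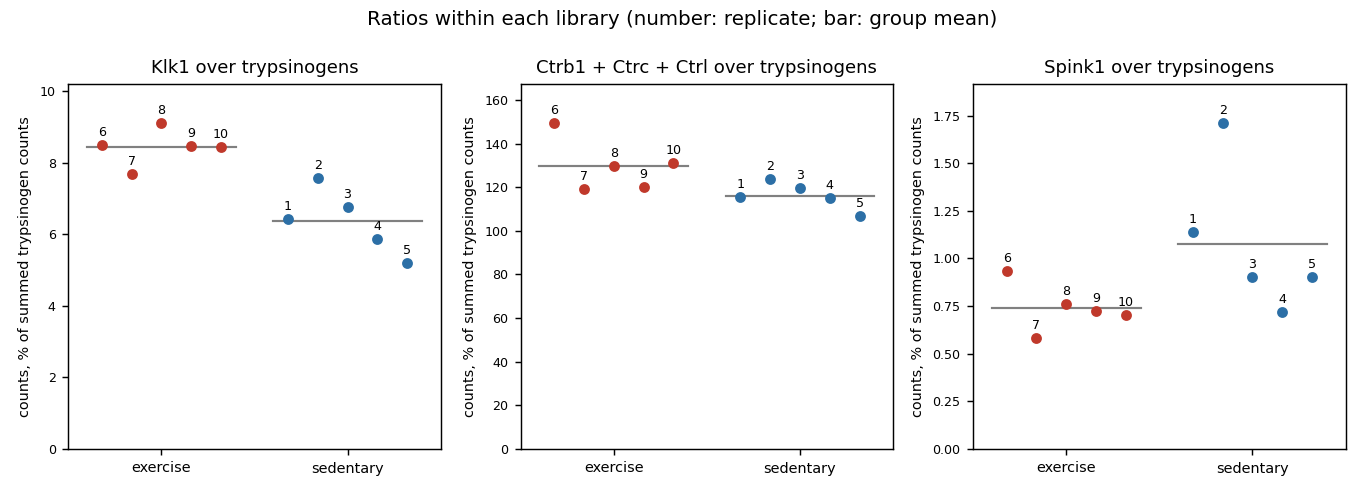
Each panel plots a ratio of counts within a library, in percent of the summed trypsinogen counts, with the exercise group left of the sedentary group; points are libraries with their replicate number and lines are group means. The Klk1 ratio lies between 7.68 and 9.11% in exercise and between 5.21 and 7.57% in sedentary libraries, while the other ratios overlap.

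The mouse trypsinogens lie in a cluster on chromosome 6. In the order of the annotation it runs 1810009J06Rik, Gm2663, 2210010C04Rik, Try4, Try5, Try10, Prss3, Gm5771, Gm10334, Prss1 and Prss2. None of the 6 trypsinogen-like genes of the cluster outside the 10 passed the edgeR test, with 2 higher at an unadjusted p under 0.05; DESeq2 called 2 and limma-voom 0. The most abundant, 2210010C04Rik, had 16366, 11774, 10888, 24763 and 9407 CPM in exercise libraries and 9792, 4571, 6690.2, 7367 and 4691 CPM in sedentary libraries. Only exercise 10 overlapped with sedentary 1 (log2 fold change 1.14, edgeR adjusted p = 0.0648), and it shared 0% of its 31-base windows with the other listed genes. Without sedentary 1 and 2 it passed at 1.25 (edgeR adjusted p = 0.0482, over a range of 0.00402 to 0.126). Try10 had a log2 fold change of 0.92 (edgeR adjusted p = 0.0585), and 1.01 without sedentary 1 and 2, when it passed (edgeR adjusted p = 0.0487, over a range of 0.0177 to 0.116). Try10 also passed without sedentary 1 alone (edgeR adjusted p = 0.0457).

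A run of 4 neighbouring genes, Prss3, Gm5771, Gm10334 and Prss1, was high in sedentary 5. Gm5771 had 89.1 CPM there, against 27.8, 22.7, 13.98, 25.8 and 5.91 CPM in exercise libraries and 15.6, 3.22, 5.93 and 6.48 CPM in sedentary 1 to 4. Gm10334 had 34.8 CPM there, against 38.7, 23.6, 14.8, 27.8 and 7.62 CPM in exercise libraries and 12.01, 4.20, 6.71 and 9.03 CPM in sedentary 1 to 4. Sedentary 5 was thus the highest of all 10 libraries for Prss3 and Gm5771 and the highest sedentary library for Gm10334 and Prss1. These 4 genes were grouped after their values were seen, so a high share in sedentary 5 follows from that choice and is a description only. The 4 genes held 1.99% of the counts of all listed trypsinogen-like genes in sedentary 5 (95% Wilson interval 1.95 to 2.04%, counting error only). They held 0.255 to 0.462% in exercise libraries and 0.287 to 0.376% in the other sedentary libraries. Prss2, next to the run, was not high in sedentary 5, and its share of the 5 trypsinogens was lowest there, at 40.3%, against 45.3 to 51.5% in exercise libraries and 45.9 to 50.3% in the other sedentary libraries. Coding identity within the run was 99.1% between Prss3 and Gm10334 and 97.6% between Prss1 and Gm5771, so these counts could be those of fewer genes. Without sedentary 5 the log2 fold changes were 1.29 for Prss3, 1.68 for Prss1, 1.49 for Gm10334 and 1.30 for Gm5771, against 0.63, 0.99, 0.75 and -0.33 with it. None passed in either fit (edgeR adjusted p = 0.0508, 0.0835, 0.0679 and 0.136 without sedentary 5), where 1.56% of all genes tested rose. The scarce genes Gm2663 and 1810009J06Rik, which are 99.5% identical, had their highest sedentary values in sedentary 5 too, at 3.28 and 2.99 CPM, and log2 fold changes of 0.57 and -0.20 (edgeR adjusted p = 0.439 and 0.795).

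**Figure D4:**
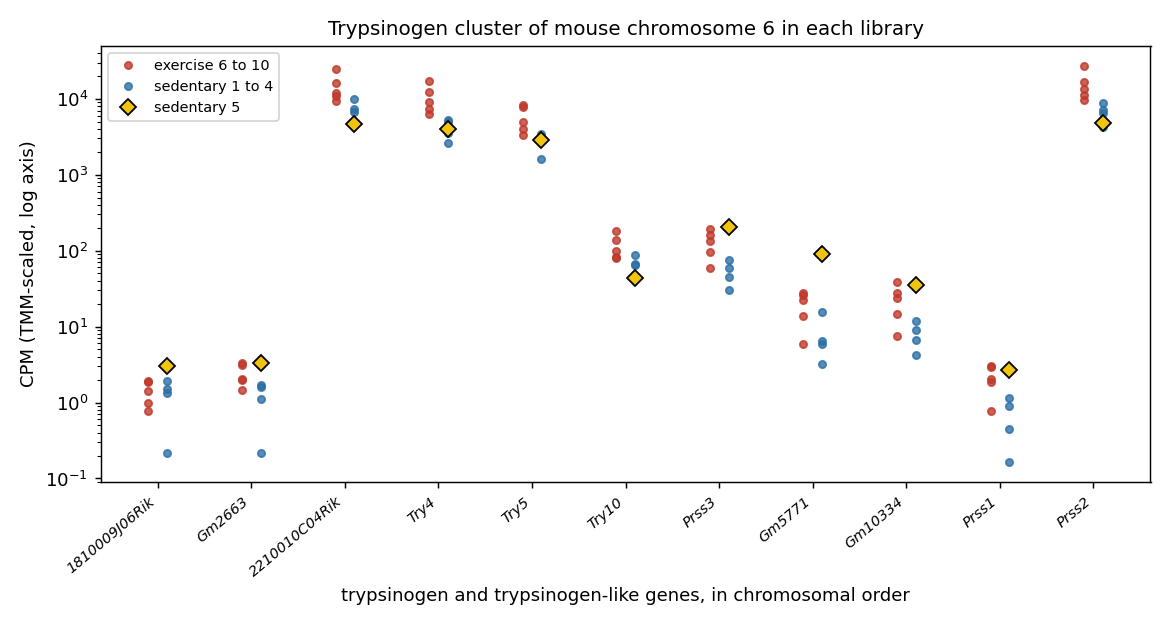
CPM (log axis) of the trypsinogen-like genes in their order along chromosome 6; each point is a library, exercise left of sedentary at each gene, with sedentary 5 marked and no correction for transcript length. Sedentary 5 lies apart from the other sedentary libraries at Prss3 (205 CPM), where exercise 9 comes close (191 CPM). It lies apart from all other libraries at Gm5771 (89.1 CPM) and among the other sedentary libraries at Prss2 (4758 CPM).

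Beside the 10 genes, other genes of the acinar secretory programme were measured. Of 22 other digestive enzyme and granule genes, 10 rose and 0 fell, with a median log2 fold change of 1.25, against 1.19 for the 10 genes. The count was 15 without sedentary 1 and 2, 20 with DESeq2 and 2 with limma-voom. With either tool all 22 values were positive and 0 genes were lower. Over all genes, 374 rose in the reported fit (2.44% of those tested), 644 without sedentary 1 and 2 (4.1%), 1097 with DESeq2 and 177 with limma-voom. The smallest p-values of the 22 were those of Sycn (1.47, edgeR adjusted p = 0.0269), a granule membrane protein, the elastase Cela3b (1.37, 0.0276), the amylase Amy2b (1.37, 0.0299) and the lipase-related Pnliprp2 (1.25, 0.0342). Each of these calls was lost without exercise 6 or sedentary 2 or 5, among others (edgeR adjusted p up to 0.0632, 0.0661, 0.0623 and 0.0708 in the same order). The 10 genes together had 0.282 to 0.381 times the counts of these 22 genes in exercise libraries and 0.275 to 0.359 times in sedentary libraries, ranges that overlap. Among 6 acinar transcription factors 2 rose and 1 fell, where 2.44% of all genes tested rose and 11.4% fell. Of the 6, limma-voom called only Ptf1a, which also passed without sedentary 1 and 2 (2.17). Ptf1a, a subunit of the complex that drives acinar enzyme genes, had 27.1, 17.3, 17.0, 44.1 and 13.0 CPM in exercise libraries and 9.56, 2.62, 5.71, 6.39 and 3.87 CPM in sedentary libraries. All exercise values were higher (log2 fold change 2.07, standard error 0.42, edgeR adjusted p = 0.0117). Rbpjl, its partner in acinar cells, averaged 58.2 ± 27.8 CPM in exercise and 24.6 ± 7.63 CPM in sedentary libraries (log2 fold change 1.24, edgeR adjusted p = 0.0380). Rbpjl no longer passed without sedentary 1 and 2 (1.32, edgeR adjusted p = 0.0534), nor without exercise 6, 7 or 9 or sedentary 2, 3 or 5 (0.0562 to 0.0840, within 0.00526 to 0.0840 over its alternatives). Gata4, also a factor of intestinal epithelium, had 3.45 to 8.49 CPM in exercise libraries and 17.1 to 172 CPM in sedentary libraries, with 107 and 172 CPM in sedentary 1 and 2, the libraries highest in intestinal markers (log2 fold change -3.48, edgeR adjusted p = 0.00971). Without these libraries its log2 fold change was -1.92 and still passed. Mecom had a log2 fold change of -0.91 and did not pass (edgeR adjusted p = 0.170). It was lower on library totals (-1.24, edgeR adjusted p = 0.0422), and its value without sedentary 1 and 2 was 0.0526 (edgeR adjusted p = 0.908). Bhlha15 averaged 82.1 ± 9.67 CPM in exercise and 73.0 ± 26.7 CPM in sedentary libraries and did not pass (log2 fold change 0.17, edgeR adjusted p = 0.622). Nr5a2 had a log2 fold change of -1.04 and did not pass either (edgeR adjusted p = 0.191). Without sedentary 1 and 2 the log2 fold changes were -0.069 for Bhlha15 and 0.198 for Nr5a2.

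Of 17 listed genes that activate trypsinogen, inhibit trypsin-like proteases or are cut by trypsin as receptors, 13 were tested, of which 0 rose and 4 fell in edgeR, with a median log2 fold change of -0.75. At an unadjusted p under 0.05, 2 were higher. DESeq2 called 0 higher and 6 lower, and limma-voom 0 higher and 3 lower. Over all genes, edgeR called 1745 lower (11.4% of those tested), DESeq2 2642 and limma-voom 339. Tmprss15, the enteropeptidase of the duodenum, had 2.91, 1.497, 3.45, 0.837 and 7.81 CPM in exercise libraries and 82.9, 68.9, 22.8, 17.9 and 18.9 CPM in sedentary libraries. The groups did not overlap, and sedentary 1 and 2 were again the highest (log2 fold change -3.66, standard error 0.69, edgeR adjusted p = 0.00971). Without them Tmprss15 still passed, at -2.53. Spink4, an intestinal relative of Spink1, averaged 0.423 ± 0.362 CPM in exercise and 22.5 ± 29.2 CPM in sedentary libraries (log2 fold change -5.68, edgeR adjusted p = 0.00900). Spink4 still passed at -4.03 without sedentary 1 and 2 but not in limma-voom (adjusted p = 0.0799). The antitrypsin genes Serpina1e and Serpina1b were scarce, with 0 to 6 and 1 to 12 counts in exercise libraries. They averaged 0.216 ± 0.172 and 0.322 ± 0.301 CPM in exercise and 3.33 ± 2.55 and 2.49 ± 1.44 CPM in sedentary libraries. Their log2 fold changes were -3.89 and -2.92 (edgeR adjusted p = 0.0106 and 0.0178), and Serpina1b no longer passed without exercise 8 (edgeR adjusted p = 0.0548). Both still passed without sedentary 1 and 2, at -3.33 and -2.46. These genes and the 12 intestinal markers were lower together, and the part of intestinal RNA in their fall was not tested. The cathepsins Ctsb, Ctsl and Ctsd, lysosomal proteases that act on trypsinogen, had log2 fold changes of -0.61, 0.64 and 0.15 and did not pass (edgeR adjusted p = 0.0791, 0.116 and 0.457).

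To order the 10 genes by level, CPM was divided by transcript length. In exercise libraries Ctrb1 had 34608 ± 14511 CPM per kb, Prss2 19156 ± 8581, Try4 12992 ± 5458, Ctrl 12212 ± 4958 and Try5 7065 ± 2783 CPM per kb (mean ± SD, n = 5). In sedentary libraries the same genes had 12790.3 ± 3174, 7688 ± 2288, 5096 ± 1363, 4589 ± 1328 and 3481 ± 892 CPM per kb. Below them came Klk1 with 2809 ± 1199 CPM per kb in exercise and 871 ± 223 in sedentary libraries, and Spink1 with 328 ± 158 in exercise and 186 ± 54.4 in sedentary libraries. Prss3 had 156 ± 63.0 CPM per kb in exercise and 100.7 ± 85.8 in sedentary libraries, and Ctrc 49.8 ± 16.3 in exercise and 23.8 ± 8.31 in sedentary libraries. Prss1 stood last, with 2.66 ± 1.16 CPM per kb in exercise and 1.33 ± 1.22 in sedentary libraries. The order was the same in both groups. Neighbours in it whose means differed by less than the larger of their SDs were Prss2 and Try4, and Try4 and Ctrl, in exercise libraries. In sedentary libraries they were Try4 and Ctrl, Ctrl and Try5, Spink1 and Prss3, and Prss3 and Ctrc.

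Across the 10 libraries, the log2 CPM of each gene was correlated with the mean of the other 9, as a description in which the genes share each library's depth and scaling. Pearson's r was 0.987 for Try4, 0.982 for Try5, 0.972 for Ctrb1, 0.961 for Ctrc, 0.954 for Ctrl, 0.951 for Prss2 and 0.933 for Klk1. It was lower for Spink1 (0.799), Prss1 (0.718) and Prss3 (0.716). Outside the 10 genes, the highest r with their mean log2 CPM over the 10 libraries was that of Slc38a5, an amino acid transporter (0.985), followed by Cela3b (0.975), Arhgdig (0.974), Klk1b4 (0.967) and Gal, the galanin gene (0.964).

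Promoters were available for 7 of the 10 genes, from RefSeq (GRCm38.p6), and were read over the 250 bases before the start. The factor PTF1, of which Ptf1a and Rbpjl are subunits, is known to bind an E-box next to a TTTCCC box. Shown are the promoters of the most abundant gene that rose, of the most abundant trypsinogen, of Klk1 and of Prss1, with CANNTG (which reads the same on both strands) and TTTCCC (as GGGAAA on the other strand) in capitals. They lie at chr8:111691011-111691260 on the minus strand for Ctrb1, chr6:41521526-41521775 on the plus strand for Prss2, chr7:44225110-44225359 on the plus strand for Klk1 and chr6:41458680-41458929 on the plus strand for Prss1.
Ctrb1: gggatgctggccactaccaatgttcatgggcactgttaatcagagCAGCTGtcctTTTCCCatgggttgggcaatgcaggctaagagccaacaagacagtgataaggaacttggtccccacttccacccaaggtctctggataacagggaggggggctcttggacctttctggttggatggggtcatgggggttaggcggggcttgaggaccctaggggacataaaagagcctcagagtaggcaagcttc
Prss2: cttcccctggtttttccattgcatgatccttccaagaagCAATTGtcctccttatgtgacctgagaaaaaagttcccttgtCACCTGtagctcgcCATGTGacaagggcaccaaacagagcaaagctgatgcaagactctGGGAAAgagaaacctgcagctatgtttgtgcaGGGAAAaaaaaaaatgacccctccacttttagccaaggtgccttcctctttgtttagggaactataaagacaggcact
Klk1: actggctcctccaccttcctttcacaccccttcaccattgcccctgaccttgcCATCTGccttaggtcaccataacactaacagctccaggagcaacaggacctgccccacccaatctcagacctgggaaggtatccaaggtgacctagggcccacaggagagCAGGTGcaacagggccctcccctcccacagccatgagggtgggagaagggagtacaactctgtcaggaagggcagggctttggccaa
Prss1: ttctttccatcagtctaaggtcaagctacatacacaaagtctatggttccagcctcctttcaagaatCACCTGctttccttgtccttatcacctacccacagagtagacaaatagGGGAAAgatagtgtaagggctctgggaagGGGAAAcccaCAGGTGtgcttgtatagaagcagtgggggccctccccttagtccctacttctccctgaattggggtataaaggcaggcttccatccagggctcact
CANNTG was present in 7 of 7 promoters, against 66.2% of 32851 mouse promoters over the same length. TTTCCC on either strand was present in 3 of 7, against 21.9% of all promoters. Both stood within 24 bases of each other in 2 of 7, Ctrb1 and Prss1, against 4.44% of all promoters. Of these, Ctrb1 rose and Prss1 did not pass, while Klk1, with the largest fold change, had no TTTCCC in this window. The matches in capitals do not overlap each other, and a match describes letters only.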

How the data were processed

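Per the labels' protocols, a column kit yielded the islet RNA and a stranded mRNA kit the libraries. The submitters' processing notes name fastp and kallisto, without versions; build, annotation and summation over transcripts are each not given in the sources used here. Values are estimated counts for Ensembl genes as the authors deposited them; 12.6% were not whole (tolerance 1e-06), and all were rounded for testing. Of 52178 genes 28459 had a count, 97.8% of them with a known symbol. The Wilson interval covers counting error only, because without molecular identifiers reads are not independent molecules.

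Groups came from the sample titles. Genes were tested in R 4.3.3 with edgeR 4.0.16 (quasi-likelihood, TMM, default filter with minimum count 10 and minimum total 15, 15298 genes, Benjamini-Hochberg, threshold 0.05). Library sizes behind CPM were TMM-scaled; log2 CPM used a prior count of 2. Ratios of counts within libraries were compared with exact permutation tests (SciPy 1.17.1), adjusted over 3 ratios. Alternatives were other scalings and filters, robust edgeR, DESeq2 1.42.0, limma-voom (limma 3.58.1), and libraries left out. Transcript lengths, windows and coding identities came from GENCODE M21, promoters from RefSeq. Fits were checked on simulated counts.

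The genes, lists and tests were chosen with earlier results of these data known. Named genes were the 10 genes, the other trypsinogen-like genes of the cluster and the 5 genes most alike. The 4 genes of smallest p of each further list were also named. Duct, beta, alpha, stromal and immune lists are given as counts and sums, apart from G6pc2. Klk1b3, Klk1b11, Ace, the cathepsins, Bhlha15, Nr5a2 and G6pc2 were named outside this rule, after their values were seen.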

Additional observations from a re-analysis of the deposited data

Results flagged for a closer look

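In sedentary 5, Prss3 had 205 CPM, while the other 4 sedentary libraries had 29.9 to 75.0 CPM and the exercise libraries 59.1 to 191 CPM. In the same library Gm5771 had 89.1 CPM, against 3.22 to 15.6 CPM in the other sedentary libraries, and Gm10334 had 34.8 CPM, against 4.20 to 12.01 CPM. Each of these values lay farther from the rest of its group than Dixon's 95% limit for 5 samples (0.71 of the group's range) allows. These were 3 of 38 groups of libraries examined, where chance passes this limit in about 1 in 20. The 3 genes are neighbours in the trypsinogen cluster and near-identical in sequence, so they are not independent of each other.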

How the results depend on the processing

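Of the 10 genes, 6 rose in the reported fit and under RLE, library totals, upper quartile, scaling without acinar genes, a minimum count of 50 and robust edgeR. The count was 4 without a filter (Prss2 and Ctrb1 lost, adjusted p = 0.0663 and 0.0624) and with limma-voom (Prss2 and Ctrc lost, adjusted p = 0.0556 and 0.0584), and 7 with DESeq2; with each library left out it ran from 1 to 6. Over all genes 2119 were called (374 higher, 1745 lower). Library totals gave 4567 (159 higher, 4408 lower, 96.5% lower), with a median log2 fold change of -0.34 over all genes and 0.79 over the 10 genes, all 10 values positive. DESeq2 gave 3739 (1097 higher, 2642 lower, 70.7% lower), limma-voom 516 (177 higher, 339 lower, 65.7% lower), the fit without sedentary 1 and 2 gave 2006 (67.9% lower), and leaving out each library 951 to 3610. The Klk1 ratio ran from 0.35 to 0.48 with each library left out, and was 0.51 without sedentary 1 and 2. There its exact permutation p was the smallest that 5 against 3 libraries allow (adjusted p = 0.107). The chymotrypsinogen ratio ran from 0.11 to 0.19 and the Spink1 ratio from -0.62 to -0.30 with each library left out; with the other trypsinogen-like genes in the sum the chymotrypsinogen ratio was 0.20. Directions turned for Gm5771 (0.54 with limma-voom, -0.61 to 1.30 with each library left out, highest without sedentary 5), 1810009J06Rik (0.0663 with limma-voom, -0.48 to 0.153 with each library left out, highest without sedentary 5) and Mecom (0.0526 without sedentary 1 and 2). Without sedentary 1 and 2, directions also turned for Nr5a2 (0.198) and Bhlha15 (-0.069). The causes were not tested. No paired analysis was possible because the groups share no replicate number. Depth limits Prss1, which had 16 to 53 counts in exercise and 3 to 55 in sedentary libraries.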
